A study of Mus musculus with 10 samples.

Results

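The genes described here encode nuclear-made subunits of complexes II, III and IV of the mitochondrial respiratory chain, the electron carrier cytochrome c, and ATP synthase, also called complex V. They were chosen by gene symbol from a list of 41 such genes, and all 41 had a row among the 24544 genes of the deposited count table under the symbols given. Of these, 4 belong to complex II, 9 to complex III, 1 encodes cytochrome c, 12 belong to complex IV and 15 to ATP synthase. The samples were 10 bulk RNA-seq libraries of long-term hematopoietic stem cells, the rare bone marrow cells that maintain blood formation for life. The cells came from bone marrow of Hoxb5-mCherry reporter mice of 2 to 3 months, a strain in which a red fluorescent protein reports Hoxb5 and which both groups share. Both groups were sorted as Lin-, cKIT+ and SCA1+ cells that were CD150+, CD48-, FLK2- and CD34-, as well as Hoxb5+. They differed in neogenin-1, a cell surface receptor: 5 libraries held NEO1+ and 5 held NEO1- cells. Each library pooled 250 to 500 cells of 2 mice and was made with Smart-seq2, a full-length cDNA method primed on poly(A) tails, without molecular identifiers. The labels do not say whether libraries of a group, or libraries of the same number in both groups, came from separate mice, so the p-values measure the spread between these libraries, part of which may be technical. In bulk samples like these, fewer cells of a type and less RNA per cell cannot be told apart.

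Respiratory complexes sit in the inner mitochondrial membrane. Complex II passes electrons from succinate to ubiquinone, complex III passes them on to cytochrome c, and complex IV hands them to oxygen, while complexes III and IV pump protons across the membrane. ATP synthase lets the protons flow back and uses that flow to make ATP. Quiescent hematopoietic stem cells are known for relying on glycolysis more than their dividing progeny do, which is why levels of these genes are often examined in them.

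Library totals lay between 21.2 and 38.9 M counts, and the 41 genes had between 53 and 36995 counts per library. All 41 passed the filter on low counts, which left 12203 genes to test. The level of Neo1 itself, in CPM (counts per M of scaled library size), averaged 47.5 in the NEO1+ group against 10.7 in the NEO1- group (adjusted p 0.248, edgeR). It was 64.8, 48.6, 59.6, 12.5 and 52.1 CPM in NEO1+ libraries 1 to 5 and 18.9, 11.5, 12.2, 4.56 and 6.15 CPM in NEO1- libraries 1 to 5. The library labelled NEO1+ 4 thus had a Neo1 level within the NEO1- range and below NEO1- library 1, although the cells were sorted on the surface protein and not on the transcript. Without it, the median log2 fold change of the 41 genes described below was -0.27, with 36 of 41 below 0. The summed level of 10 stem cell markers ranged from 2014 to 2269 CPM in NEO1+ and from 1948 to 2398 CPM in NEO1- libraries. Among markers of other cells, the erythroid sum ranged from 1486 to 2120 CPM and from 1406 to 1723 CPM, with Hba-a2, Hbb-bs and Hbb-bt at 0 in every library. The granulocyte and monocyte sum ranged from 491 to 4647 CPM and from 382 to 3082 CPM, the megakaryocyte sum from 185 to 217 CPM and from 114 to 196 CPM with Gp6 at 0, and the B and T cell sum from 34.1 to 51.9 CPM and from 26.2 to 60.9 CPM with Pax5 and Cd3e at 0. The summed level of 12 cycling markers ranged from 299.7 to 478 CPM in NEO1+ and from 80.6 to 225 CPM in NEO1- libraries, with no overlap between groups. Rn45s, the gene of the ribosomal RNA precursor, took 27.9% to 37.7% of the counts in NEO1+ and 30.7% to 42.4% in NEO1- libraries. These counts do not tell the precursor from mature ribosomal RNA.

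The comparison asks whether NEO1+ and NEO1- stem cells differ in the transcript levels of these subunits. None of the 41 genes passed an adjusted p of 0.05 in edgeR's quasi-likelihood test, where 0% of all genes tested passed. The smallest adjusted p was 0.400, for Cox4i1. Estimates below 0, meaning a lower level in NEO1+ cells, were found for 33 of the 41 genes, against 49% of all genes tested. The median log2 fold change (NEO1+ over NEO1-) was -0.27 over the 41 genes and 0.01 over all genes tested. With an unadjusted p under 0.05, 6 of the 41 were lower in NEO1+ cells and 0 were higher, where 3.49% and 3.11% of all genes tested were so. For Cox4i1 and Cox7b every NEO1+ library lay below every NEO1- library, a pattern that 1.13% of all genes tested showed, and for 0 of the 41 did every NEO1+ library lie above, against 1.35%.

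**Figure D1:**
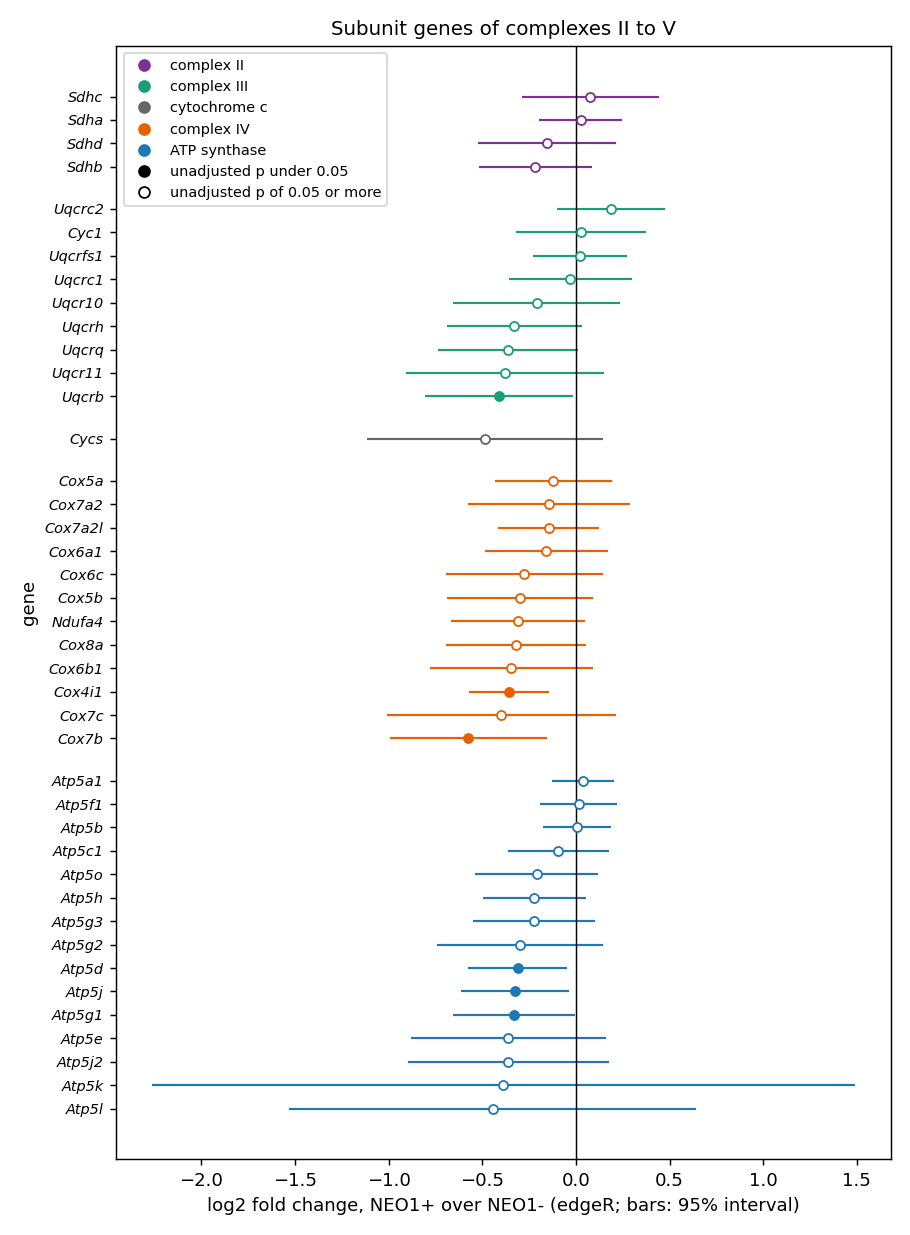
Log2 fold change (NEO1+ over NEO1-) on the x axis for each of the 41 genes on the y axis, ordered within each complex, with 95% intervals from edgeR as bars and filled points for an unadjusted p under 0.05. All 12 complex IV genes sit below 0, the intervals of 35 of the 41 genes include 0, and none passed after adjustment.

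The complexes differed in how many genes lay on each side, and also in transcript length. All complex II genes had transcripts of 1142 bases or more. All complex IV genes but Cox7a2l and Cox7b, and all ATP synthase genes but Atp5a1, Atp5b, Atp5c1 and Atp5f1, had transcripts under 1000 bases. Estimates ran along with length, as described below, and its part in the differences between complexes was not tested. The median log2 fold change was -0.07 in complex II (2 of 4 below 0), -0.21 in complex III (6 of 9), -0.30 in complex IV (12 of 12) and -0.30 in ATP synthase (12 of 15). The 8 genes with estimates above 0 were Sdha, Sdhc, Uqcrc2, Uqcrfs1, Cyc1, Atp5a1, Atp5b and Atp5f1. Sdha encodes the succinate-oxidising flavoprotein, Uqcrfs1 the Rieske iron-sulfur protein, Cyc1 cytochrome c1, and Atp5a1 and Atp5b the alpha and beta subunits of the ATP-making head. The estimates of these 8 ran from 0.0042 for Atp5b, which turned to -0.0014 with DESeq2 size factors, to 0.19 for Uqcrc2, and none passed the test.

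Levels differed widely within each complex once divided by transcript length. Atp5b and Cox4i1 had the highest means, at 451 and 359 CPM per kb in NEO1+ and 449.9 and 459.9 CPM per kb in NEO1- libraries, so Atp5b came first in the former group and Cox4i1 in the latter. Atp5a1 followed at 289 and 282 CPM per kb. In NEO1+ libraries Atp5c1 and Cox8a came next, at 222 and 206 CPM per kb. In NEO1- libraries Cox8a came next at 257 CPM per kb, then Atp5d at 239.0 and Atp5c1 at 237.6 CPM per kb. At the other end, as means over all 10 libraries, were Atp5l at 17.1 CPM per kb, Atp5k at 9.61 CPM per kb and Cycs at 6.04 CPM per kb. Subunits that stand in fixed numbers within one complex thus had values far apart in these libraries. For Cycs the length used, 3123 bases, is nearly all untranslated, since its coding part is 315 bases.

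Promoter sequences are shown for members with and without a match to NRF1, a factor known for binding the promoters of many nuclear respiratory genes. RefSeq entries on GRCm38.p6, from 250 bases before to 50 after the start site, matched 33 of the 41 genes. Those without an entry were Sdhc, Uqcrb, Uqcrc2, Uqcrq, Cyc1, Cox4i1, Cox6c and Atp5a1. Among them Sdhc, Uqcrc2, Cyc1 and Atp5a1 had estimates above 0, so the genes matched held fewer such estimates. An exact NRF1 match (GCATGCGC, either strand) occurred in 8 of these 33 (24.2%), against 5.72% of the 9875 promoters of tested genes and 2.80% of all 27025 promoters of the same length. The ETS motif bound by GABPA (CCGGAAG, either strand) occurred in 11 of 33 (33.3%), against 18.9% and 9.12%. By contrast the SP motif (GGGCGG) occurred in 12 of 33 (36.4%), against 65.1% and 35.9%, and the TATA box (TATAAA) in 1 of 33, against 6.89% and 14.2%. The YY1 motif (AAGATGGC) and the CRE (TGACGTCA) occurred in 2 of 33 each (6.06%), against 4.94% and 3.33% of promoters of tested genes. No motif of this set contains another, although separate matches may overlap. A match is a run of letters and was not tested as a binding site. The windows below run from 150 bases before to 20 after the start, read 5′ to 3′ on the gene's strand, and capitals mark matches to the NRF1, ETS or SP motif on either strand. Cycs (chr6:50566550-50566719, minus strand), Sdhb (chr4:140961121-140961290, plus strand), Uqcr11 (chr10:80406802-80406971, minus strand) and Atp5k (chr5:108434380-108434549, minus strand) carry NRF1 matches, and Cox7b (chrX:106015550-106015719, plus strand), the gene with the largest estimated difference, carries none of these motifs in its window.
Cycs: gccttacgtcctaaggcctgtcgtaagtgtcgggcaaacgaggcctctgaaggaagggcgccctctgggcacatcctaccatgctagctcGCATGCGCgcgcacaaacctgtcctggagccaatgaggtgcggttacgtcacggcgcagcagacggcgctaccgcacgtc
Sdhb: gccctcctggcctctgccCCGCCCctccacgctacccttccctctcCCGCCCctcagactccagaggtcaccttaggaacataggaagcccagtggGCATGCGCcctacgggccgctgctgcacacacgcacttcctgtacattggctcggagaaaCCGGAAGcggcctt
Uqcr11: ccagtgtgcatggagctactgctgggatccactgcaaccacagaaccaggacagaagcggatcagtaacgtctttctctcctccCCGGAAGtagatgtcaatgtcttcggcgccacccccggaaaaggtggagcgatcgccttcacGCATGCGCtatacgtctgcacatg
Atp5k: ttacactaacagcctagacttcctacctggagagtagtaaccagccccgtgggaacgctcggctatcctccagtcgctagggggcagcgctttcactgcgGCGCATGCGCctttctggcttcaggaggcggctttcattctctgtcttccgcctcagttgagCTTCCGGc
Cox7b: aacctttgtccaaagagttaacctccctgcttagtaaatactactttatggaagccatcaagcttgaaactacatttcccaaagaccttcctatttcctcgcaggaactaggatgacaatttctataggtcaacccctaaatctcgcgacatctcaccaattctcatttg
In these windows the NRF1 match begins a short way before the start site, and in Uqcr11 it runs across it, while in Atp5k the palindromic run GCGCATGCGC holds a pair of overlapping matches. Not every NRF1 match lies so near: that of Cox6a1, not printed here, falls outside a window of this length. The ETS match of Sdhb and that of Atp5k lie just after the start. The 8 genes with an NRF1 match, which were Sdhb, Uqcrc1, Uqcr11, Cycs, Cox6a1, Atp5g2, Atp5k and Atp5l, all had estimates below 0 (median log2 fold change -0.34). Of the 25 without, 21 lay below 0, with a median of -0.22. The 11 with an ETS match also all lay below 0, with a median of -0.33, and of the 22 without 18 did, with a median of -0.22. For the SP motif the order was the other way, with a median of -0.16 over the 12 with a match (10 below 0) and -0.31 over the 21 without (19 below 0). Most of the genes matched thus lay below 0 with or without a motif, and none of these differences between members was tested.

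Complex II, succinate dehydrogenase, also works in the citric acid cycle, and it is the one complex here whose subunits are all nuclear-encoded. None of its 4 genes passed the test, and their log2 fold changes ran from -0.22 to 0.08. Sdhb, the iron-sulfur subunit whose promoter is printed above, had 100.3, 96.0, 96.5, 102 and 88.5 CPM in NEO1+ libraries 1 to 5 and 146, 115, 95.0, 103 and 102 CPM in NEO1- libraries 1 to 5. NEO1- libraries 1 and 2 were the high ones, and the other 3 lay within or just above the NEO1+ range. Its log2 fold change was -0.22 (SE 0.14, adjusted p 0.890). Sdhd, a membrane anchor and the complex II gene with the lowest mean CPM, had 89.7, 65.0, 65.6, 102 and 68.1 CPM in NEO1+ and 103, 89.2, 90.2, 80.7 and 72.5 CPM in NEO1- libraries. The groups overlapped, with NEO1+ library 4 close to the highest NEO1- library, and the log2 fold change was -0.16 (SE 0.17, adjusted p 0.980). Sdha, the flavoprotein and the highest of the 4, had 308, 312, 239, 264 and 296 CPM in NEO1+ and 306, 256, 249.6, 286 and 297 CPM in NEO1- libraries. These ranges were nearly the same, and the interval of its log2 fold change ran from -0.20 to 0.25. For Sdhc, the other anchor, the estimate was 0.08 (SE 0.17).

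Complex III, the cytochrome bc1 complex, had its largest negative estimates in the small subunits. Uqcrb, a small subunit near the ubiquinone site, had 63.6, 61.7, 52.9, 49.6 and 56.3 CPM in NEO1+ and 83.2, 101, 57.9, 74.9 and 59.8 CPM in NEO1- libraries 1 to 5. NEO1- libraries 3 and 5 fell inside the NEO1+ range, and the other 3 lay above it. The log2 fold change was -0.41 (SE 0.18, adjusted p 0.728). Uqcrq, another small subunit, had 56.1, 52.4, 46.5, 60.2 and 49.8 CPM in NEO1+ and 82.3, 79.5, 54.8, 69.1 and 55.7 CPM in NEO1- libraries. The same 3 NEO1- libraries, 1, 2 and 4, lay above all NEO1+ libraries, and the log2 fold change was -0.36 (SE 0.17, adjusted p 0.766). Uqcr10, the complex III gene with the lowest mean CPM, had 33.8, 27.6, 26.8, 27.3 and 30.9 CPM in NEO1+ and 31.1, 41.1, 29.8, 32.5 and 34.8 CPM in NEO1- libraries, with overlapping groups and a log2 fold change of -0.21 (SE 0.21). Uqcr11 had an estimate of -0.38, which was -0.21 without NEO1- library 1, and Uqcrh, known as the hinge protein, had -0.33.

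The larger subunits of complex III lay nearer to 0. Uqcrc1, a core protein and the highest of the complex in CPM, had 201, 204, 231, 239 and 271 CPM in NEO1+ and 258, 197, 319.6, 213 and 182 CPM in NEO1- libraries. The NEO1- libraries spread on both sides of the NEO1+ range, and the log2 fold change was -0.03 with an interval from -0.36 to 0.30. Its partner Uqcrc2 had the highest estimate of all 41 genes at 0.19 (SE 0.13, adjusted p 0.900), at a mean level of 172 ± 12.1 CPM in NEO1+ cells against 151 ± 28.5 CPM in NEO1- cells (SD, n = 5 each). Cyc1 and Uqcrfs1, which carry the heme and the iron-sulfur cluster that pass electrons to cytochrome c, had estimates of 0.03 and 0.02.

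Cytochrome c, the small soluble carrier between complexes III and IV, is also known for triggering caspases once released from mitochondria. Its gene Cycs had 15.2, 13.8, 18.1, 19.4 and 12.1 CPM in NEO1+ and 24.8, 27.9, 16.3, 19.7 and 21.5 CPM in NEO1- libraries 1 to 5. NEO1- library 3 fell inside the NEO1+ range and the other 4 lay above it. The log2 fold change was -0.49 (SE 0.29, adjusted p 0.858), the second most negative estimate among the 41 genes. Cycs and several short subunit genes have processed pseudogenes in the mouse genome, and how reads that match several places were counted is not given in the sources used here, so these values carry that uncertainty.

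Complex IV, cytochrome c oxidase, was the one complex here with every gene below 0, although none passed the adjusted threshold. Cox4i1, the broadly expressed form of subunit 4, an early building block of the complex, had 245, 276, 280.4, 288 and 248 CPM in NEO1+ and 323, 415, 327, 325 and 323 CPM in NEO1- libraries 1 to 5. No NEO1- value reached down to the NEO1+ range: 4 of the 5 NEO1- libraries lay close together and library 2 stood above them. The log2 fold change was -0.36 (SE 0.10, adjusted p 0.400), with means of 268 ± 19.6 and 343 ± 40.4 CPM (SD, n = 5 each). DESeq2 gave an adjusted p of 0.0260 for Cox4i1, the one gene of the 41 that it called lower, where 0.383% of the genes it tested were called lower. Over the other alternatives tried the adjusted p of Cox4i1 ran from 0.00531 to 1.

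Cox7b, a small subunit that spans the membrane, had 30.1, 32.9, 31.6, 27.0 and 28.6 CPM in NEO1+ and 53.9, 50.2, 37.5, 39.3 and 42.7 CPM in NEO1- libraries. Every NEO1- value was above every NEO1+ value, and NEO1- libraries 1 and 2 were again the highest. Its log2 fold change of -0.57 (SE 0.19, adjusted p 0.550) was the most negative of the 41 genes, with means of 30.0 ± 2.32 and 44.7 ± 7.10 CPM (SD, n = 5 each). Cox7c, the complex IV gene with the lowest mean CPM, had 29.1, 21.6, 20.8, 18.2 and 16.2 CPM in NEO1+ and 40.7, 22.0, 21.5, 31.6 and 23.8 CPM in NEO1- libraries. NEO1+ library 1 lay above 3 of the NEO1- libraries, and the log2 fold change was -0.40 (SE 0.28, adjusted p 0.900), or -0.22 without NEO1- library 1.

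Cox7a2 and Cox7a2l are related by name and family, yet they do different work: Cox7a2 is a subunit of the enzyme, and Cox7a2l joins complexes III and IV into supercomplexes. Over the last 225 coding bases compared without gaps they were 25.8% identical, and their longest shared run was 11 bases. Cox7a2 had 39.2, 37.7, 35.4, 33.5 and 36.2 CPM in NEO1+ and 49.3, 45.9, 28.8, 38.7 and 38.2 CPM in NEO1- libraries. NEO1- library 3 was the lowest of the 10 and NEO1- libraries 1 and 2 were the highest, so the groups overlapped (log2 fold change -0.14, SE 0.20). Cox7a2l had 196, 203, 214, 177 and 237 CPM in NEO1+ and 217, 276, 180.2, 247 and 217 CPM in NEO1- libraries. Those groups overlapped as well, at a log2 fold change of -0.15 (SE 0.13). The remaining 7 complex IV genes had estimates from -0.35 for Cox6b1 to -0.12 for Cox5a, and Ndufa4, once listed under complex I, had -0.31 (SE 0.17).

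ATP synthase has a catalytic head, a central stalk and a ring that turn, and a side stalk that holds the head still. Atp5b, the catalytic beta subunit and the most abundant of the 41 genes in CPM, had 859.5, 803, 862, 918 and 879.9 CPM in NEO1+ and 923, 901, 936, 858 and 692 CPM in NEO1- libraries 1 to 5. NEO1- library 5 was the lowest of the 10, the other 9 lay between 803 and 936 CPM, and the log2 fold change was 0.0042 with an interval from -0.18 to 0.19. Atp5a1, the alpha subunit, had means of 715 ± 41.2 and 697 ± 56.6 CPM (SD, n = 5 each) and a log2 fold change of 0.04 (SE 0.08). Of the central stalk, Atp5d (delta) had 181, 176, 189, 191 and 159.7 CPM in NEO1+ and 227, 279.9, 224, 205 and 177 CPM in NEO1- libraries. NEO1- library 5 fell inside the NEO1+ range and the other 4 lay above it (log2 fold change -0.31, SE 0.12, adjusted p 0.633). The other stalk genes Atp5c1 (gamma) and Atp5e (epsilon) had estimates of -0.09 and -0.36.

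Of the side stalk, Atp5j (coupling factor 6) had 91.5, 96.6, 103, 100.0 and 108 CPM in NEO1+ and 135, 152, 119, 118 and 101 CPM in NEO1- libraries. NEO1- library 5 again lay inside the NEO1+ range and the rest above it (log2 fold change -0.32, SE 0.13, adjusted p 0.679). The other side stalk genes were Atp5f1 (subunit b) at 0.01, Atp5h (subunit d) at -0.22 and Atp5o, the subunit that confers oligomycin sensitivity, at -0.21. Atp5k and Atp5l encode small membrane subunits (e and g) that help join the enzyme into dimers. Atp5k, the lowest of the 41 genes in CPM, had 5.67, 2.69, 2.35, 2.28 and 2.47 CPM in NEO1+ and 7.93, 3.37, 1.80, 3.74 and 3.37 CPM in NEO1- libraries. Library 1 was the highest of each group, and the interval of the log2 fold change, from -2.27 to 1.49, was the widest of all.

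Subunit c, of which the ring is built, is encoded by 3 genes, Atp5g1, Atp5g2 and Atp5g3, that give the same mature protein after cleavage of different leader peptides. Over their last 225 coding bases the 3 were between 78.7% and 84.9% identical without gaps, and the longest run shared by a pair was 20 bases. Atp5g1 had 65.9, 58.0, 64.3, 75.2 and 64.6 CPM in NEO1+ and 88.8, 99.9, 70.7, 80.2 and 72.6 CPM in NEO1- libraries. NEO1+ library 4 lay above NEO1- libraries 3 and 5, and the log2 fold change was -0.33 (SE 0.15, adjusted p 0.747). Atp5g2 had 27.1, 32.4, 28.5, 39.6 and 32.3 CPM in NEO1+ and 46.1, 46.0, 35.5, 35.7 and 33.6 CPM in NEO1- libraries, and its log2 fold change was -0.30 (SE 0.21). Atp5g3 had 70.2, 66.6, 69.5, 79.6 and 65.1 CPM in NEO1+ and 81.8, 101, 79.2, 83.5 and 64.6 CPM in NEO1- libraries, and its log2 fold change was -0.22 (SE 0.15). The groups overlapped for each of these genes, and NEO1+ library 4 was the highest of its group throughout. As shares of the CPM of the 3 genes, Atp5g1, Atp5g2 and Atp5g3 took 39.1% ± 1.36, 19.0% ± 1.82 and 41.9% ± 1.24 in NEO1+ libraries (SD, n = 5). In NEO1- libraries the shares were 40.5% ± 1.57, 19.3% ± 1.27 and 40.2% ± 2.30 (SD, n = 5). The mix of the 3 genes thus lay within about the spread between libraries in both groups, while their sum averaged 168 ± 15.0 CPM in NEO1+ cells and 204 ± 29.4 CPM in NEO1- cells.

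**Figure D2:**
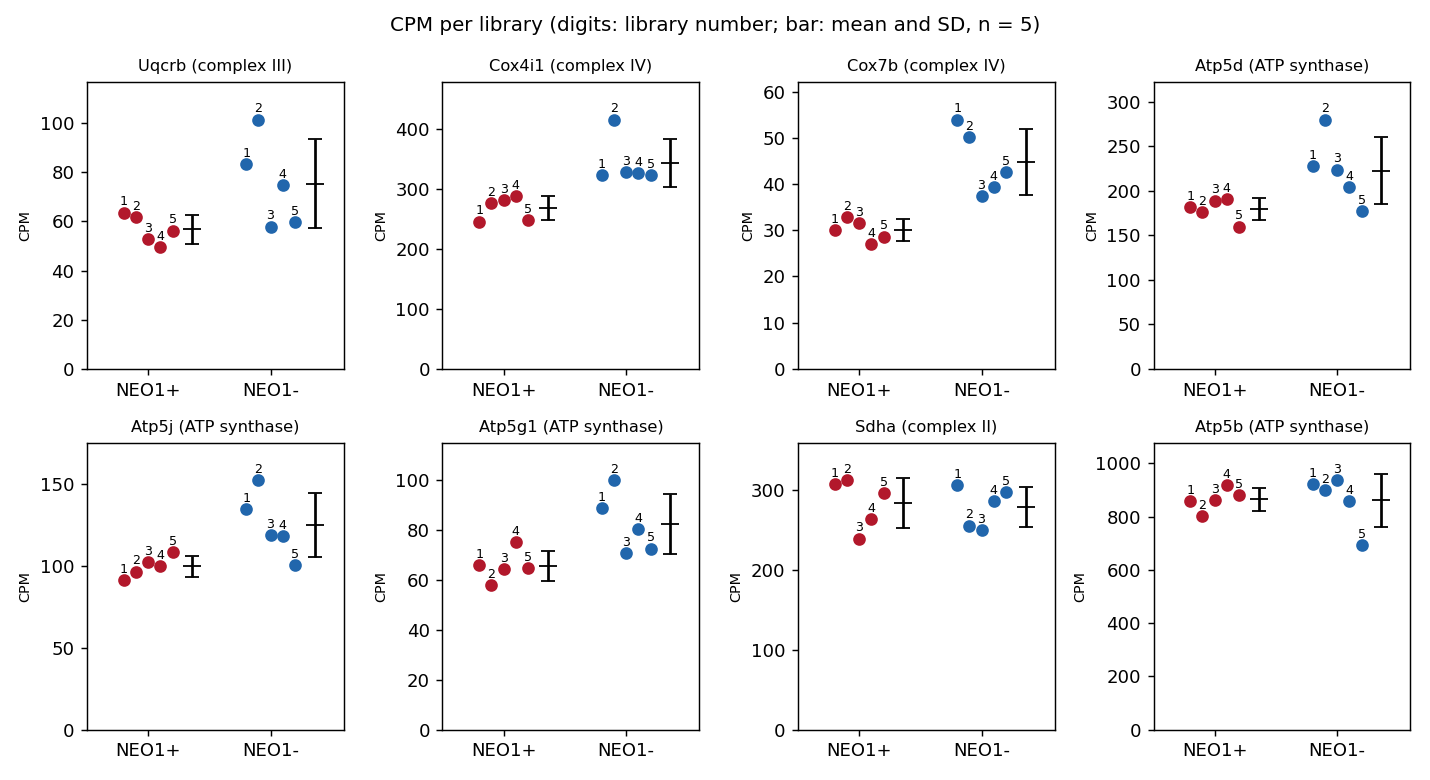
CPM of 8 genes (y axis, from 0) in each library of the NEO1+ and NEO1- groups (x axis), with library numbers as digits and the mean and SD (n = 5) as bars. NEO1- libraries 1 and 2 are the highest points for Uqcrb, Cox7b, Atp5j and Atp5g1, the groups are apart for Cox4i1 and Cox7b, and they overlap for Sdha and Atp5b.

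A pair of NEO1- libraries had high values for many of the 41 genes. NEO1- libraries 1 and 2 held the highest of the 10 values for 16 of the 41 genes each. The median over the 41 genes of log2 CPM minus the gene's mean over 10 libraries was -0.06, -0.15, -0.12, -0.07 and -0.14 in NEO1+ libraries 1 to 5. In NEO1- libraries 1 to 5 it was 0.28, 0.36, -0.14, 0.09 and -0.07. The NEO1+ libraries were close to each other, and NEO1- libraries 3 and 5 lay inside their range. NEO1- libraries 1 and 2 also had the largest shares of Rn45s, at 42.3% and 42.4% of counts, and the share in NEO1- library 3 was 40.5%. Genes detected numbered 11477, 12053, 11593, 13147 and 12441 in NEO1- libraries 1 to 5 and 12800 to 13808 in NEO1+ libraries.

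Without NEO1- libraries 1 and 2, a choice made after seeing the data, the median log2 fold change of the 41 genes was -0.08, with 29 of 41 below 0. Complex IV then had a median of -0.10, ATP synthase -0.08 and complex III -0.07. These libraries were picked for their high values, so a move of the medians toward 0 follows from leaving them out. The median was -0.14 with the share of Rn45s as a covariate (35 of 41 below 0), also added after seeing the data, and -0.15 when a covariate for genes detected was added (33 of 41). Leaving out NEO1- library 2 alone took the complex III median to -0.13. Of the 33 genes below 0, 19 had an estimate that moved by over 1.5 times when 1 library was left out. For 18 of these it moved toward or past 0 without NEO1- library 1 or without NEO1- library 2. Where such a library held a gene's highest value, that direction follows from leaving it out, so this count is no separate support. Some also moved so without another library, such as Sdhd without NEO1+ library 2 (-0.10) and Uqcrc1 without NEO1- library 3 (0.11). Cox4i1 and Cox7b had log2 fold changes of -0.28 and -0.40 without NEO1- libraries 1 and 2. The 12 cycling markers had estimates above 0 in every case, 6 of them with an unadjusted p under 0.05, and the part of the cell cycle, of Rn45s and of detection in the values of the 41 genes was not tested beyond these fits.

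**Figure D3:**
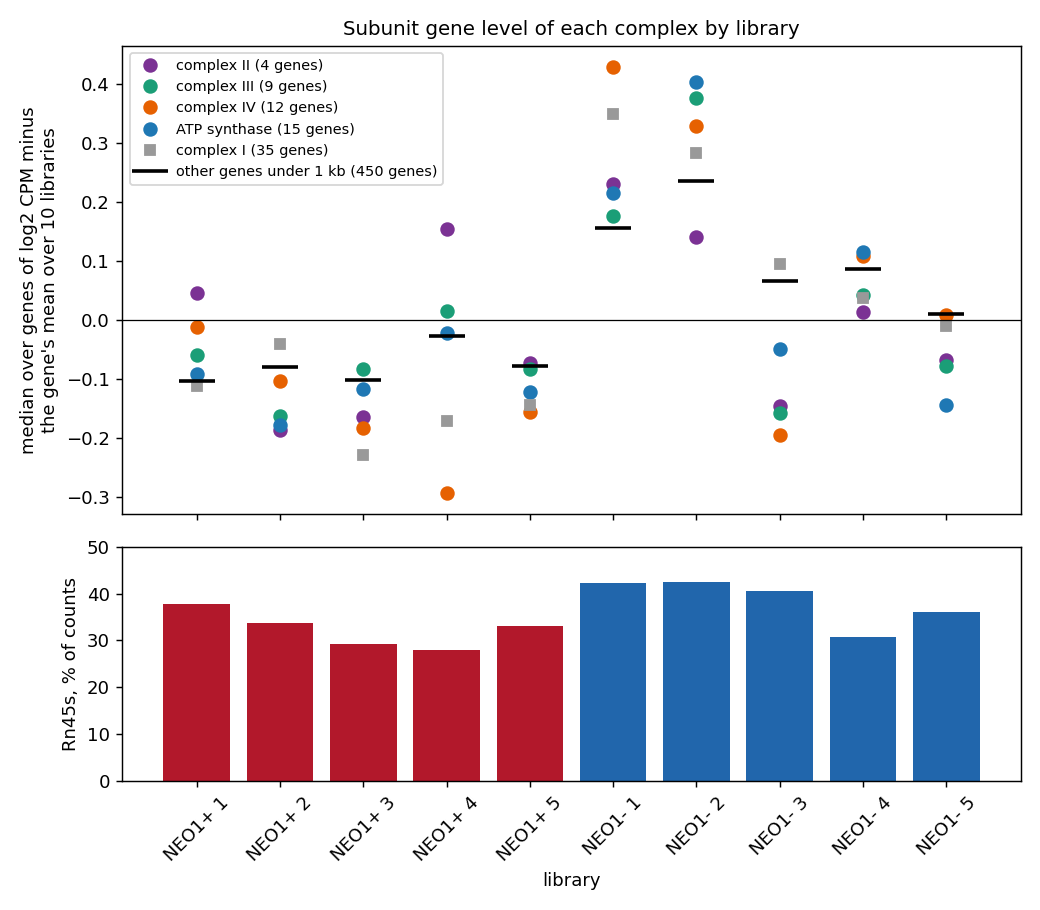
Upper panel: median over the genes of each complex of log2 CPM minus the gene's mean over 10 libraries (y axis) for each library (x axis), with black dashes for 450 other genes with transcripts under 1 kb; lower panel: share of counts taken by Rn45s in percent. NEO1- libraries 1 and 2 stand above the other 8 for complexes III and IV, ATP synthase and the other short genes.

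Transcript length ran along with the fold changes. Lengths came from GENCODE M21 and were found for all 41 genes. The 26 genes with transcripts under 1000 bases all had estimates below 0, with a median log2 fold change of -0.32. Of the 15 with longer transcripts 7 were below 0, and the median was 0.0042. Those 7 were Sdhb, Sdhd, Uqcrc1, Cycs, Cox7a2l, Atp5c1 and Cox7b, whose transcript of 1001 bases lies at the split. Across the 41 genes the fold change correlated with log10 transcript length (Pearson's r 0.62, Spearman's rho 0.61), with log10 coding length (0.77 and 0.73) and with log2 mean CPM (0.63 and 0.66). These are descriptions over 41 genes that share the same 10 libraries, and short transcripts were also less abundant.

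Other short transcripts shared this direction. Of all genes tested with transcripts under 1000 bases, 73.7% of 1062 had estimates below 0, with a median of -0.24, against 46.5% of 11073 longer ones, with a median of 0.03. After leaving out the 41 genes, complex I genes and ribosomal protein genes (cytosolic and mitochondrial), and keeping a mean log2 CPM of at least 4, 77.8% of 450 short genes lay below 0, with a median of -0.20. At that same level of expression, which Atp5k and Atp5l do not reach, the 11 members under 600 bases had a median of -0.33 and the 61 other genes of that length -0.29. From 600 to under 800 bases the medians were -0.27 for 9 members and -0.22 for 161 other genes, and from 800 to under 1000 bases -0.31 for 4 members and -0.16 for 228 other genes. With members, complex I and ribosomal protein genes included, the medians of all genes in these classes were -0.33, -0.25 and -0.19. The library medians of the 450 other short genes ranged from -0.10 to -0.03 in NEO1+ and from 0.01 to 0.24 in NEO1- libraries and did not overlap. Per the labels' protocols the amplified cDNA was cleaned with beads at a ratio of 0.7, a step that removes small fragments. The part of transcript length in the values of the 41 genes was not tested. Without NEO1- libraries 1 and 2, 23 of the 26 short members lay below 0, with a median of -0.11.

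**Figure D4:**
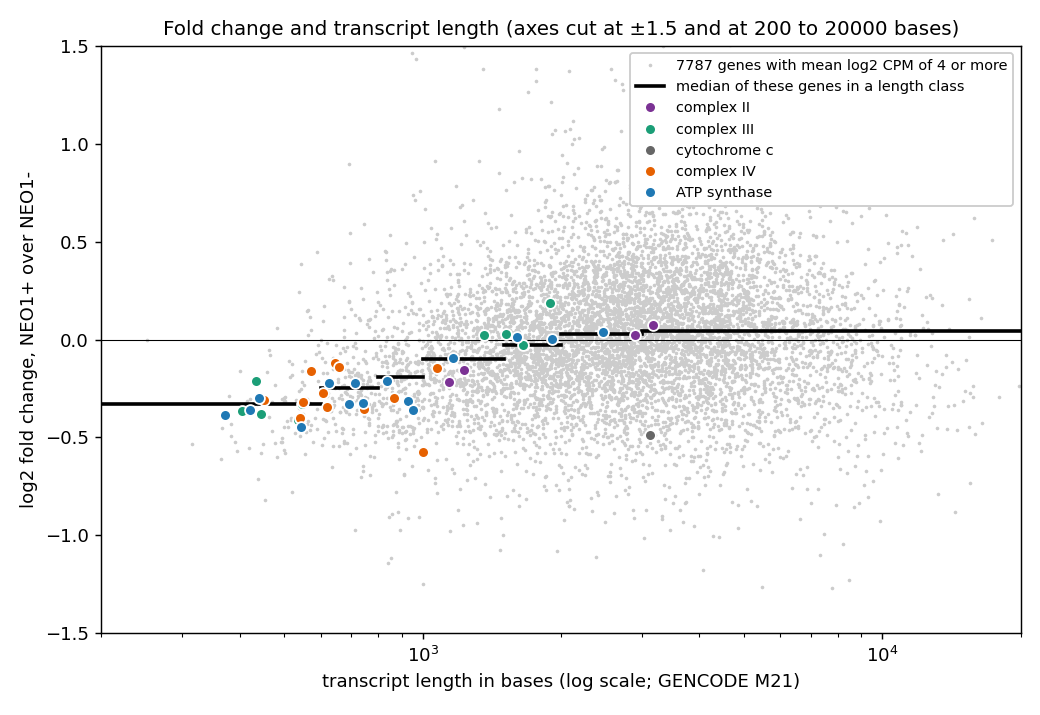
Log2 fold change (NEO1+ over NEO1-, y axis) against transcript length in bases (x axis, log scale) for the 41 genes in colour and for 7787 genes with a mean log2 CPM of at least 4 in grey, with black lines for the median of all these genes in each length class. The members under 1000 bases lie below 0. Under 800 bases they lie on both sides of the black lines, and from 800 to under 1000 bases they lie below the line. Most of the longer members lie around the lines near 0, and all lines include the members themselves.

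Genes that work with these complexes were examined as fixed lists, and none of their genes passed the adjusted threshold in edgeR. Complex I, which feeds electrons from NADH into the same chain, had estimates below 0 for 33 of 35 tested genes, with a median of -0.27. Its gene of smallest p below 0 was Ndufb9 at -0.48 (SE 0.13, adjusted p 0.390), from 111 ± 12.2 CPM in NEO1+ cells against 154 ± 22.0 CPM in NEO1- cells (SD, n = 5 each). Above 0 that gene was Ndufv3 at 0.09, and the estimates of the list ran from -0.82 to 0.09. Ndufs5, also in the complex I list, had 0 counts in every library and was not tested. Assembly factors of complexes II to V, which help build the complexes, were listed together with some other genes such as Atpif1, Lrpprc and Taco1. This list had 23 of 38 tested genes below 0 and a median of -0.12. In that list Coa4, an assembly factor of complex IV, had a log2 fold change of -1.48 (SE 0.58, adjusted p 0.633). Its level was 44.8 CPM in NEO1- library 3, from 7.39 to 11.1 CPM in the other NEO1- libraries and from 3.15 to 8.54 CPM in NEO1+ libraries. On the other side stood Bcs1l, which inserts the Rieske protein into complex III, at 0.55 (SE 0.34).

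The citric acid cycle, which supplies electrons to the chain, had 7 of 14 genes below 0 and a median of 0.01, between Dlst at 0.42 (SE 0.17) and Idh3g at -0.32 (SE 0.12). Carriers, porins and import genes had 9 of 17 below 0 and a median of -0.10. Among them Vdac1, a pore of the outer membrane, had 0.37 (SE 0.14) and Timm44, part of the import motor, had -0.50 (SE 0.21). Regulators of mitochondrial biogenesis had 6 of 16 below 0 and a median of 0.10, with Tfb2m, a mitochondrial transcription factor, at 0.62 (SE 0.35) and Ssbp1, which binds single-stranded mitochondrial DNA, at -0.44 (SE 0.21). Of 8 isoforms restricted to certain tissues or testis, 2 were tested, and both had estimates above 0, of which Cox4i2 had 0.55 (SE 0.58). Of 3 further ATP synthase genes Atp5s had 1.12 (SE 0.53) and 2010107E04Rik had -0.45 (SE 0.38). The 6 mitochondrially encoded subunit genes listed had no row in the count table under the symbols tried, so they were not analysed here.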

How the data were processed

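Libraries were grouped as NEO1+ and NEO1- (5 each) from the gating labels. The authors deposited raw counts per gene symbol, and a table of log2 values that equals log2 of the size-factor-scaled count plus 1. Per the submitters' processing notes, bcl2fastq 2.18, STAR 2.4, DESeq2 1.22.2 and mm10 were used; the counting tool, its annotation and its use of strand are not given in the sources used here. Counts carry no molecular identifiers, so PCR copies count as reads. Rn45s was kept in the library sizes of the main test.

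Counts were tested in R 4.3.3 by the quasi-likelihood test of edgeR 4.0.16 with robust fits, after filterByExpr and TMM scaling, with Benjamini-Hochberg adjustment over 12203 genes and a threshold of 0.05. CPM used TMM-scaled sizes, and log2 CPM a prior count of 2. Standard errors were derived from the log2 fold change and its F statistic. Depth was 21.2 to 38.9 M counts, so 3 counts, the limit that a count of 0 allows, are 0.0699 to 0.144 CPM, for counting error only. Chi-square comparisons found no pair of replicates alike within sampling noise. Alternatives were limma 3.58.1 (voom on counts, trend on the deposited log2 values), DESeq2 1.42.0, other scalings and filters, covariates and left-out libraries. The scripts were tested on simulated data with 200 changed genes. Of these, 0% were recovered at a 1.3-fold change (median log2 estimate 0.35), 31.5% at 2-fold and 87% at 4-fold. A member change of about 1.3-fold could thus go uncalled.

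The members and lists were chosen with earlier results of these data known, and lists are given as counts and medians without a test. Values per library are given for members with an unadjusted p under 0.05 or, where a complex has fewer than 2, its 2 of smallest p. They are also given for the highest and lowest in mean CPM of each complex, for the subunit c genes, and for Cox7a2 and Cox7a2l. In each related list the gene of smallest p per direction is named. Other genes named in a sentence were chosen after their values were seen. Twnk stood in for Peo1. Transcript lengths are those of principal GENCODE M21 transcripts, found for 12135 tested genes. A comparison of protein sequences was not made here.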

Additional observations from a re-analysis of the deposited data

Results flagged for a closer look

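Within groups of 5 libraries, 92 sets of values were checked for a library far from the others, and 5 stood out, against 4.6 that chance alone would give at 1 in 20. In NEO1+ library 1, Uqcr11 had a log2 CPM of 5.20 with the nearest other library at 4.79, Cox6b1 had 6.30 with the nearest at 5.78, and Atp5k had 2.52 with the nearest at 1.46. In NEO1- library 2, Cox4i1 had a log2 CPM of 8.70 with the nearest at 8.36. In NEO1- library 5, Atp5b had 9.43, below the nearest at 9.75.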

How the results depend on the processing

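Depth limits the members of low count most: the widest interval was that of Atp5k, with as few as 53 counts in a library. The number of genes called over the whole table was 0 in edgeR, with 806 at an unadjusted p under 0.05. It was 2 with no filter on low counts, 2 with limma-voom, 1 with limma-trend on the deposited log2 values and 146 with DESeq2, and between 0 and 1 when single libraries were left out (1 without NEO1- library 1). Members called were 1 with DESeq2, namely Cox4i1. The labels do not say whether the numbers 1 to 5 pair the libraries, which were treated as unpaired: deviations of same-numbered libraries correlated at 0.0040 to 0.036. With the number as a replicate block, edgeR called 0 genes, and the members' median was -0.26 with 33 below 0. DESeq2 with that block called 727 of 13251 genes, 160 of them lower in NEO1+ cells. Of the 41 members it called 1, Cox4i1, which was lower in NEO1+ cells. The median of all genes moved from 0.01 to 0.12 with limma-voom, to 0.11 with limma-trend and to 0.13 with the block in DESeq2.

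Without NEO1- libraries 1 and 2 the medians were -0.079 (all members), -0.10 (complex IV) and -0.079 (ATP synthase), and the estimates of Cox7a2 (0.051), Atp5c1 (0.086), Atp5k (0.062) and Atp5l (0.067) turned positive. With genes detected as a covariate Sdhc (-0.18), Sdhd (0.068), Uqcrc1 (0.19), Cyc1 (-0.074), Atp5a1 (-0.036) and Atp5k (0.047) changed sign. With the share of Rn45s as a covariate Sdhc (-0.083), Uqcrc1 (0.023), Cyc1 (-0.043) and Atp5a1 (-0.014) did so. Atp5b was -0.0014 with DESeq2 size factors and with DESeq2. The cause was not tested. Leaving out single libraries gave member medians of -0.31 to -0.20, with 31 to 36 below 0. By complex the medians were -0.12 to -0.02 (II), -0.27 to -0.13 (III), -0.38 to -0.21 (IV, 12 of 12 below 0 each time) and -0.35 to -0.21 (ATP synthase). Signs turned for Sdha (-0.012 to 0.080), Sdhc (-0.0036 to 0.16), Uqcrc1 (-0.11 to 0.11), Uqcrfs1 (-0.014 to 0.071), Cyc1 (-0.062 to 0.12), Atp5b (-0.065 to 0.035), Atp5f1 (-0.018 to 0.051) and Atp5k (-0.72 to 0.0091), none of which passed the test.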
